A study of Mus musculus with 10 samples.

Results

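The BTG/TOB antiproliferative family was examined in hippocampal RNA from 5 trisomic Dp3Yah males and from 5 control males, littermates by the labels, all aged 16 weeks. Its 5 listed genes, Btg3, Btg1, Btg2, Tob1 and Tob2, were followed through every probe set whose gene annotation contains one of these symbols, which gave 6 of the 35556 probe sets of the array. Dp3Yah mice carry 3 copies, against 2 in their controls, of the segment of mouse chromosome 16 that starts at Hspa13 and ends at App, and App itself keeps only 2 complete copies. Controls were wild type by their labels, which give both groups the C57BL/6N background. Each mouse gave 1 array, an Affymetrix Mouse Gene 1.0 ST, with total RNA of both hippocampi, and the values are log2 expression after RMA normalisation. In such bulk tissue, fewer cells of a type and less RNA per cell cannot be told apart.

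BTG and TOB proteins share an N-terminal domain through which they bind the Cnot7 and Cnot8 deadenylases, catalytic subunits of the CCR4-NOT complex that shortens the poly(A) tails of mRNAs. The family is named for the slowing of cell division that follows when a member is overproduced. In the mouse hippocampus, Btg1 and Btg2 are best known for restraining the division of progenitor cells in the adult dentate gyrus. Btg2 is also an early response gene, and p53 is among its inducers.

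Btg3 was the only member inside the duplicated segment, and both of its probe sets were higher in Dp3Yah mice. Btg3 lies at chr16:78359860-78377181 (GRCm38.p6), between Cxadr and D16Ertd472e. The other members are on other chromosomes and have 2 copies in both groups: Btg2 at chr1:134074865-134079155, Btg1 at chr10:96617001-96622813, Tob1 at chr11:94209842-94215495 and Tob2 at chr15:81848270-81858326. Of the 2-copy members, none passed limma's test or an exact permutation test.

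The sequences before the starts of Btg3, Btg2 and Tob1 are shown because Btg3 carries the copy number difference and because Btg2 and Tob1 varied together between mice. Each is 300 bases long, from 250 bases before the start to 50 after it, read 5′ to 3′ on the gene's strand from RefSeq promoters of GRCm38.p6. All 5 members had an entry, and Btg3 had 2, for its 2 annotated starts. The Tob1 entry is for a start inside the gene span given above, so its window does not lie before that span. Capitals mark the cyclic AMP response element TGACGTCA and its short core TGACG, which reads CGTCA on the opposite strand; both strands were searched, and the full element holds the core in both directions.
Btg3, chr16:78377132-78377431, minus strand: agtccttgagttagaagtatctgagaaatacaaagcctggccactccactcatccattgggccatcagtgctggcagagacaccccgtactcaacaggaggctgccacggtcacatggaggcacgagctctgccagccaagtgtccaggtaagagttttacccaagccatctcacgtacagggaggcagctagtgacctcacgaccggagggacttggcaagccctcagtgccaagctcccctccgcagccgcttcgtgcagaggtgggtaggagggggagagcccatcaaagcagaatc
Btg3, chr16:78376761-78377060, minus strand: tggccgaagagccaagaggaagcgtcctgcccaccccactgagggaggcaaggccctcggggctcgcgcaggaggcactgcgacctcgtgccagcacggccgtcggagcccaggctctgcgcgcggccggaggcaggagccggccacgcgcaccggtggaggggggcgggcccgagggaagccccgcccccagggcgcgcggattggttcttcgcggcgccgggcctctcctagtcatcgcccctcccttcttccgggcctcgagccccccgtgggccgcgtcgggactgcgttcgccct
Btg2, chr1:134079106-134079405, minus strand: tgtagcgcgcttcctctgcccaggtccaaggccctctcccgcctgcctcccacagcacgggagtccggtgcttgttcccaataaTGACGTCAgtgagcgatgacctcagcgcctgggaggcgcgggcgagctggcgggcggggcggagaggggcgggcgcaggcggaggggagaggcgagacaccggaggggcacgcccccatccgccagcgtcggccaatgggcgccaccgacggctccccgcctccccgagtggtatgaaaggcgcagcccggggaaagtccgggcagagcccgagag
Tob1, chr11:94211204-94211503, plus strand: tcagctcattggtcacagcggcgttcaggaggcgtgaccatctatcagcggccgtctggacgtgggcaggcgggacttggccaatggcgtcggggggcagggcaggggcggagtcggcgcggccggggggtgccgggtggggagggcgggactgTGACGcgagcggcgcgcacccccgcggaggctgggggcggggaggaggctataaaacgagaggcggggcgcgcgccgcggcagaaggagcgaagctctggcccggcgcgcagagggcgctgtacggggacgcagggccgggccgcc

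The full element occurred in the Btg2 window, at position 85 of the 300 bases, and in 1.79% of the 32851 promoter windows of the table. Tob1 held 1 core, at position 155, Btg1 held 2, at positions 64 and 148, and 20.8% of all windows held at least 1. Neither Btg3 window held a core, nor did that of Tob2. The CCAAT box (CCAAT or ATTGG) was present in 37.4% of all windows. It was found at position 56 of the upstream Btg3 window and at position 203 of the downstream one. It also occurred at positions 78 and 217 in Btg2, 8 and 81 in Tob1, and 171 in Btg1, but not in Tob2. Such matches describe the letters of these windows only.

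The annotation pairs both Btg3 probe sets, 10440419 and 10445875, with the same 2 genes, Btg3 and Gm7334. Gm7334 is a transcribed pseudogene at chr17:50698525-50699892, outside the duplicated segment, so the signal of each probe set may come from either locus, and their parts were not tested. In the numbering of the array, probe set 10440419 lies mostly among those of chromosome 16 genes, and the next one paired with a single gene is that of D16Ertd472e. Probe set 10445875 lies mostly among those of chromosome 17 genes, with Plcl2 before it and Kcnh8 after it. The annotation does not state on which locus either was designed.

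The first Btg3 probe set, 10440419, read 8.45, 8.21, 8.38, 8.31 and 8.27 (log2) in Dp3Yah mice 1 to 5, against 7.91, 7.99, 7.76, 7.71 and 7.57 in control mice 1 to 5. The lowest Dp3Yah mouse was above the highest control, so the groups did not overlap. The mean was 8.32 ± 0.095 in Dp3Yah and 7.79 ± 0.165 in control mice (SD, n = 5 each). Its log2 change was 0.54 (SE 0.078, 95% interval 0.36 to 0.71), a fold of 1.45 (1.29 to 1.63), and the interval included the 0.58 that 3 copies against 2 would give in proportion. The exact permutation p was 0.00794 (two-sided), the smallest that 5 against 5 can give.

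Over all probe sets the change did not pass limma's test (Benjamini-Hochberg adjusted p = 0.197, unadjusted p = 2.77e-05), although only 4 probe sets of the table had a smaller p. With the table reduced to probe sets paired with a gene, or to 1 probe set per gene, the adjusted p was 0.0525 and 0.0503. In limma 1 probe set passed over the whole table, that of the interval gene Mrpl39, which is 0.00281% of those tested, or 0.00501% of genes with 1 probe set each. The rank test of the study's methods (FCROS) gave Btg3 an f of 0.999, past its upper threshold, as it did for 2.64% of all probe sets.

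The other Btg3 probe set, 10445875, gave almost the same series: 8.43, 8.16, 8.35, 8.28 and 8.25 in Dp3Yah mice, against 7.86, 7.95, 7.71, 7.68 and 7.53 in control mice. It lay 0.016 to 0.048 below the first in every array, with a Pearson r of 0.9995 across the 10 arrays. Its log2 change was 0.55 (SE 0.079, 95% interval 0.37 to 0.72; exact permutation p = 0.00794; limma adjusted p = 0.197, unadjusted p = 2.58e-05). The probe sets share their annotated genes and are therefore not independent measurements of Btg3. For both, all 5 Dp3Yah mice lay above every control, which was so for 0.427% of all probe sets.

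**Figure D1:**
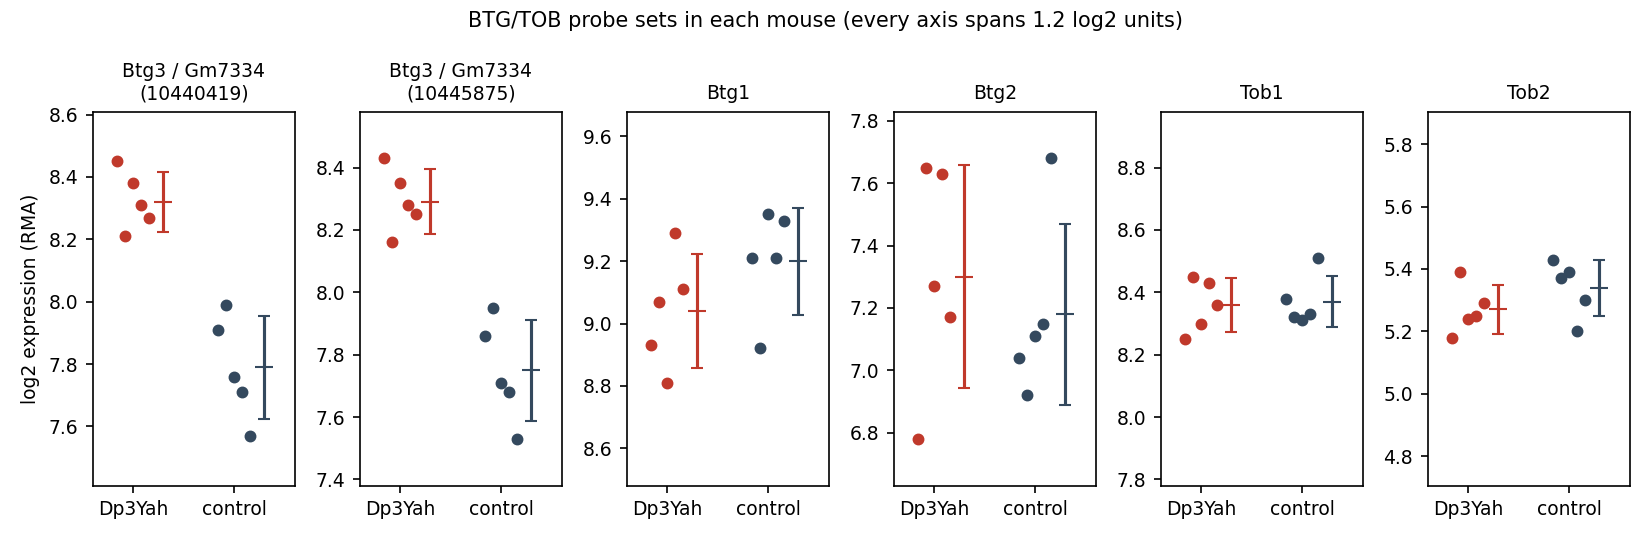
Log2 expression (RMA) of the 6 BTG/TOB probe sets in each mouse, Dp3Yah to the left of control, with the group mean and SD beside the points. Each axis spans the same log2 range; the Btg3 probe sets separate the groups (8.21 to 8.45 against 7.57 to 7.99 for 10440419), and the other members overlap.

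Btg1, which in mice helps to keep progenitor cells and lymphocytes quiescent, read 8.93, 9.07, 8.81, 9.29 and 9.11 in Dp3Yah mice, against 9.21, 8.92, 9.35, 9.21 and 9.33 in control mice. Dp3Yah mouse 3 was below every control, and the remaining 4 overlapped with them. The mean was 9.04 ± 0.183 in Dp3Yah and 9.20 ± 0.172 in control mice, a log2 change of -0.16 (SE 0.10, 95% interval -0.38 to 0.06; exact permutation p = 0.175; limma adjusted p = 0.963). The rank test put Btg1 just past its lower threshold of 0.025, with an f of 0.024, as 2.44% of all probe sets were.

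Btg2, the early response member, varied most between mice. It read 6.78, 7.65, 7.27, 7.63 and 7.17 in Dp3Yah mice, against 7.04, 6.92, 7.11, 7.15 and 7.68 in control mice. Dp3Yah mice 2 and 4 and control mouse 5 stood high, and Dp3Yah mouse 1 was the lowest of all 10. The means were 7.30 ± 0.358 in Dp3Yah and 7.18 ± 0.290 in control mice, and the log2 change of 0.12 (SE 0.178, 95% interval -0.27 to 0.51; exact permutation p = 0.587; limma adjusted p = 0.977) was smaller than either SD. It was 0.25 without Dp3Yah mouse 1 and 0.03 without Dp3Yah mouse 2.

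Tob1, which also binds poly(A)-binding protein through its C-terminal part, was almost level. It read 8.25, 8.45, 8.30, 8.43 and 8.36 in Dp3Yah mice, against 8.38, 8.32, 8.31, 8.33 and 8.51 in control mice. Dp3Yah mice 1 and 3 lay just below every control, and the groups otherwise overlapped. Its log2 change was -0.01 (SE 0.054, 95% interval -0.13 to 0.10; exact permutation p = 0.802; limma adjusted p = 0.993), and 0.00, with the sign turned, when each array was centred on its median. As a fold, the interval ran from 0.912 to 1.07.

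Tob2, its closest relative, gave 5.18, 5.39, 5.24, 5.25 and 5.29 in Dp3Yah mice, against 5.43, 5.37, 5.39, 5.20 and 5.30 in control mice. The groups overlapped, although Dp3Yah mouse 1 was the lowest. The log2 change was -0.07 (SE 0.054, 95% interval -0.19 to 0.05; exact permutation p = 0.23; limma unadjusted p = 0.238). The mean of Tob2 over all arrays, 5.30, lay under the median of the table, 5.66.

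The difference between Btg3 and each other member was compared within arrays, in 6 tests that also took in its neighbours on chromosome 16. The change of Btg3 exceeded that of Tob1 by 0.55 (95% interval 0.26 to 0.85) and that of Tob2 by 0.60 (0.38 to 0.83), each with an exact permutation p of 0.00794 (adjusted over the 6, 0.0159). It exceeded that of Btg1 by 0.70 (0.28 to 1.11; exact permutation p = 0.0159, adjusted 0.0238). Against Btg2 the excess of 0.42 was within the spread between mice (-0.22 to 1.06; exact permutation p = 0.175, adjusted 0.175).

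Among its neighbours, Cxadr, a cell adhesion receptor whose gene ends close to the end of Btg3, had a log2 change of 0.22 (SE 0.066), and Btg3 exceeded it by 0.32 (0.11 to 0.53; exact permutation p = 0.00794, adjusted 0.0159). D16Ertd472e, on the other side, had a change of 0.39 (SE 0.064), and the excess of 0.14 was within the spread (-0.06 to 0.35; exact permutation p = 0.159, adjusted 0.175). Cxadr was measured at 5.82 over all arrays, close to the median of the table. Among the 19 probe sets that stand for the interval, those of Btg3 ranked 3 and 5 by size of change. Above both were Hspa13 (0.60) and Ncam2 (0.58), and Jam2 (0.54) lay between them. All 5 Dp3Yah mice were above every control for 8 of the 17 other measured genes of the interval, as for 0.521% of all genes. Those genes were Hspa13, Usp25, D16Ertd472e, Ncam2, Mrpl39, Jam2, Atp5j and Gabpa. At the other end, Mir155 (-0.01), Tmprss15 (0.02), Mir125b-2 (0.02) and Chodl (0.03) were near 0, at mean levels of 3.70 to 4.42, below the median of the table. In addition, Mirlet7c-1 (0.09), Samsn1 (0.20), Mir99a (0.24), Atp5j (0.28), Usp25 (0.36), Nrip1 (0.38), Gabpa (0.44) and Mrpl39 (0.48) lay in between.

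**Figure D2:**
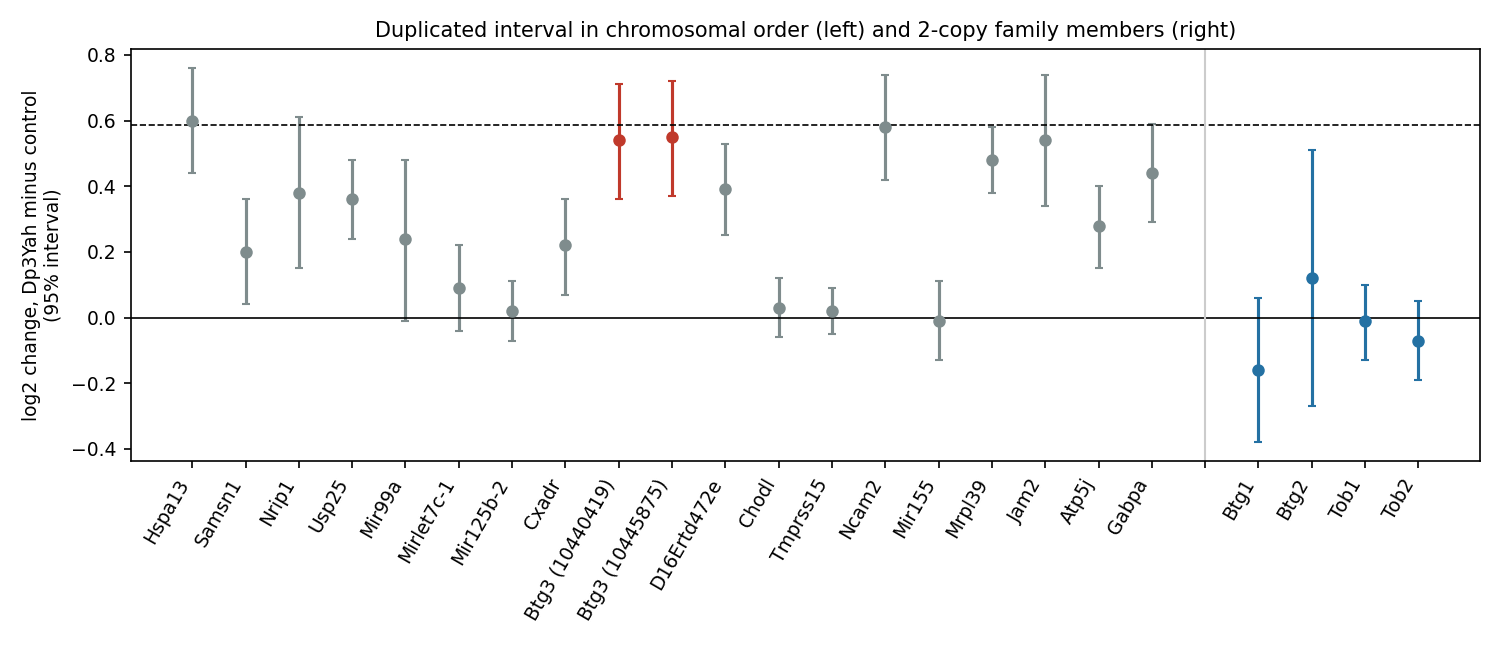
Log2 change (Dp3Yah minus control, with limma's 95% interval) of the measured genes of the duplicated interval in their order along chromosome 16, and of the 2-copy BTG/TOB members at the right. A dashed line stands at 0.58, the log2 of 1.5; the Btg3 probe sets, at 0.54 and 0.55, have intervals that include it, and the 4 members at the right have intervals that include 0.

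Other genes of the same family were near the bottom of the measured range. Btg4, which acts in oocytes, read 3.89 to 4.03 in Dp3Yah mice, against 3.95 to 4.09 in control mice (log2 change -0.03, limma adjusted p = 0.977). The X-linked Btg1 relatives were as low: Btg1b ran from 3.69 to 3.81 in Dp3Yah and from 3.62 to 3.83 in control mice, and Btg1c from 4.21 to 4.39 in Dp3Yah and from 4.10 to 4.28 in control mice. Their log2 changes were 0.00 and 0.08 (limma adjusted p = 0.999 and 0.963). None is a member by the rule used here.

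Within the groups, Btg2 and Tob1 moved together from mouse to mouse. With each group's mean removed, their Pearson r over 10 mice was 0.912 (permutation p = 0.00034, adjusted over the 10 pairs of members 0.0034), and Spearman's rho was 0.721 (permutation p = 0.0236, adjusted 0.118). Without the mice farthest out for Btg2, Dp3Yah mouse 1 and control mouse 5, r was 0.811. Over all 10 mice, 0 of the 11993 other genes above the median of the table had a higher r with Btg2 than Tob1 did. Tob1 moved over a far narrower range, with deviations of -0.109 to 0.139, where Btg2 deviated by -0.516 to 0.496.

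Btg3 ran against Btg2 within the groups, with r = -0.782 (permutation p = 0.00803, adjusted 0.0401) and rho = -0.842 (permutation p = 0.00388, adjusted 0.0388). Control mouse 2, the highest control for Btg3, was the lowest control for Btg2, and control mouse 5 was the lowest for Btg3 and the highest for Btg2. Without these mice r was -0.66. With all mice kept, 0.233% of the other genes had an r with Btg3 at least as negative as -0.782. The r of Btg3 with Tob1 was -0.693 (permutation p = 0.0275, adjusted 0.0916) and with Btg1 -0.66 (permutation p = 0.0377, adjusted 0.0942), and neither passed after adjustment. No other pair passed either: the r of Btg1 was 0.596 with Btg2 and 0.583 with Tob1 (adjusted p = 0.128 each), and Tob2 followed none of the others, with r between 0.087 and 0.319.

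**Figure D3:**
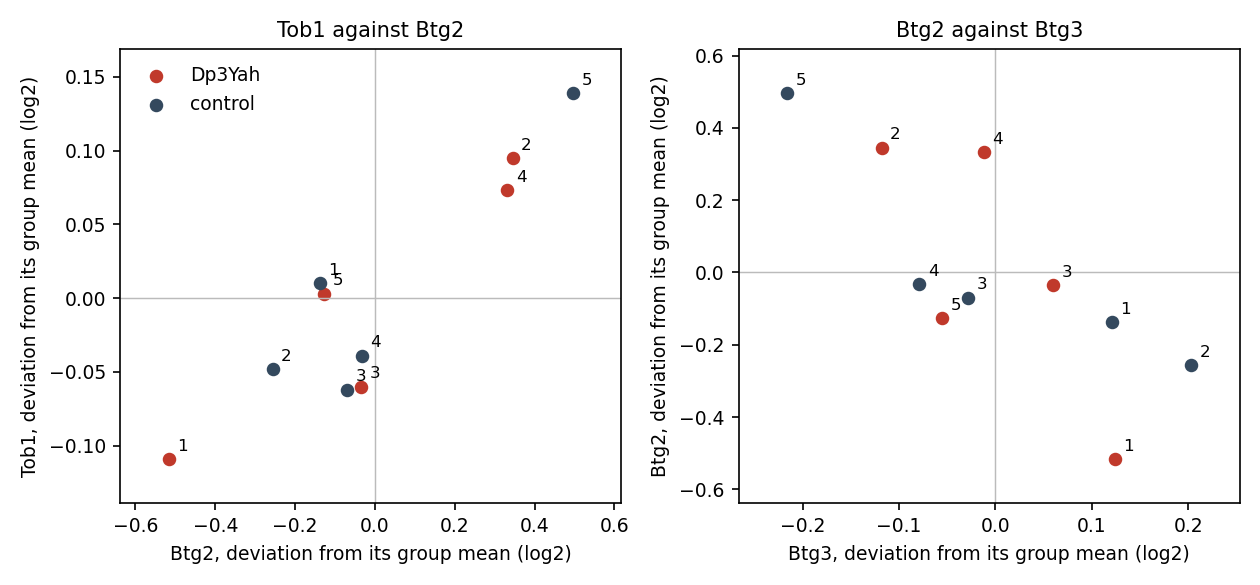
Deviation of each mouse from its group mean (log2) for Tob1 against Btg2 (left) and Btg2 against Btg3 (right), with mouse numbers beside the points. Control mouse 5 and Dp3Yah mouse 1 mark the ends of the rising pattern at the left (r = 0.912), and control mice 5 and 2 the ends along the Btg3 axis at the right (r = -0.782).

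The genes most like each member were taken from those above the median of the table, by r over the same 10 deviations, and are given as a description. All points share the same arrays, so any factor common to an array enters each r. For Btg3 they were Exoc3 (0.971), a subunit of the exocyst, the actin regulator Twf2 (0.940) and the heme oxygenase Hmox1 (0.933). For Btg2 they were Tob1 itself, Npas4 (0.895), a transcription factor induced by neuronal activity, and Icam4 (0.894). Npas4 read 5.94, 7.01, 6.64, 7.26 and 6.42 in Dp3Yah mice, with mouse 1 lowest, as for Btg2. The mean of the immediate early list described below, which holds Npas4, had an r of 0.469 with Btg2. For Tob1 they were the intraflagellar transport gene Ift46 (0.912), Btg2 and the thromboxane receptor Tbxa2r (0.902). Btg1 was most like the ubiquitin ligase gene Rnf122 (0.955), 4930430F08Rik (0.937) and the progenitor factor Sox2 (0.902). Tob2 was most like Arhgap5 (by rho, 0.964), the vesicle tethering gene Vps50 (0.949) and the translation factor gene Eif3m (0.927).

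The deadenylase complex that the family recruits was close to level. All 12 listed CCR4-NOT genes were measured, with 6 positive and 6 negative changes and a median of 0.00, as over all genes (0.00). Changes ran from -0.14 to 0.09. None passed over the table (lowest limma adjusted p = 0.963). At an unadjusted p under 0.05, 0 were higher and 1 was lower, where 2.33% of all genes were higher and 2.3% lower. That gene was Tnks1bp1, a cofactor of the complex, with a change of -0.12 (SE 0.054).

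Of the catalytic partners, Cnot7 read 8.95, 8.98, 8.99, 8.88 and 9.04 in Dp3Yah mice, against 8.95, 8.88, 8.84, 8.84 and 8.90 in control mice. Dp3Yah mice lay mostly above the controls, by 0.09 on the log2 scale (SE 0.041, exact permutation p = 0.0476, limma adjusted p = 0.963). Its paralogue Cnot8 had a change of -0.05 (SE 0.117), with Dp3Yah mouse 2 lowest at 6.10 and Dp3Yah mouse 3 highest at 6.87. Cnot9 (-0.08) and the scaffold gene Cnot3 (-0.14) also did not pass.

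Among 19 measured of 21 listed genes of poly(A) tail control and mRNA decay, 9 changes were positive and 10 negative, with a median of 0.00. None passed over the table, and 2 of the 19 were higher at an unadjusted p under 0.05, against 2.33% of all genes. Xrn1, the cytoplasmic exonuclease that degrades decapped mRNA, read 7.26, 7.15, 7.24, 7.14 and 7.24 in Dp3Yah mice, against 7.10, 7.11, 7.01, 6.95 and 7.01 in control mice. All 5 Dp3Yah mice lay above every control, which was so for this 1 gene of the 19 and for 0.521% of all genes. The log2 change of Xrn1 was 0.17 (SE 0.044, exact permutation p = 0.00794, limma adjusted p = 0.963). The deadenylase Parn had a change of 0.16 (SE 0.063), with 2 of 5 Dp3Yah mice above every control. Pabpc1, the main cytoplasmic poly(A)-binding protein and a partner of Tob1, had one of -0.03 (SE 0.043), and Cpeb4 (0.07, SE 0.042) and Edc4 (-0.07, SE 0.044) did not pass.

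Of 9 listed protein partners of single members, all measured, 4 changes were positive and 5 negative, between -0.06 and 0.03, with a median of -0.02. Prmt1, the arginine methyltransferase that binds Btg1 and Btg2, differed by 0.03 (SE 0.053). Chek1, a checkpoint kinase reported to bind human BTG3, differed by 0.00 (SE 0.060) at a mean of 4.45, below the median of the table. Src (-0.06), Smad1 (-0.05) and Smad5 (-0.05), of which the Smads are partners of Tob1, did not pass.

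The cell cycle genes on which the family is known to act had a median change of 0.02 over 17 measured of 18 listed G1/S genes. Of these changes 11 were positive and 6 negative. The remaining listed gene, Cdkn1a, had no probe set paired with it alone. None passed over the table. At an unadjusted p under 0.05, 2 of the 17 were higher and 1 lower, against 2.33% and 2.3% of all genes. Ccne2, a cyclin of S phase entry, read 5.83, 5.67, 6.11, 5.72 and 5.92 in Dp3Yah mice, against 5.53, 5.69, 5.67, 5.51 and 5.63 in control mice, a change of 0.24 (SE 0.080, limma adjusted p = 0.963). In 4 of 5 Dp3Yah mice it lay above every control. Rb1, the retinoblastoma gene, had a change of 0.16 (SE 0.074). Ccnd2, the D-type cyclin of granule cell progenitors, read 9.24, 9.30, 9.37, 9.40 and 9.21 in Dp3Yah mice, against 9.68, 9.31, 9.44, 9.48 and 9.51 in control mice, a change of -0.18 (SE 0.067, limma adjusted p = 0.963). The groups overlapped for it. Ccnd3 had a change of -0.09.

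Genes of adult neurogenesis, 19 measured of 21 listed, had 7 positive and 12 negative changes with a median of -0.01. In limma 0 passed over the table, and 1 of the 19 was lower at an unadjusted p under 0.05, against 2.3% of all genes. That gene was Sox4 (-0.09, SE 0.040), and the next by p were Neurog2 (0.10), Pcna (0.07) and Eomes (0.11). The p53 target list, in which 14 of 18 genes were measured, had a median of -0.02, with 4 positive and 10 negative changes. Its genes Trp53, Cdkn1a, Bax and Tp53inp1 had no probe set paired with that gene alone, so the list does not cover them. Here too 1 gene was lower at an unadjusted p under 0.05, against 2.3% of all genes: Pmaip1 (-0.08, SE 0.036). Ccng1 (0.06), Perp (0.14) and Sesn1 (-0.08) were next by p.

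Immediate early genes, the class to which Btg2 belongs, had 22 negative and 4 positive changes among all 26 listed, with a median of -0.17, while Btg2 itself had a change of 0.12. None passed over the table, and 0 had an unadjusted p under 0.05 (lowest limma adjusted p = 0.963). The mean level of the list ran from 7.37 to 8.20 in Dp3Yah mice, with mice 1 and 5 lowest, and from 7.79 to 8.03 in control mice. The median change was -0.06 without Dp3Yah mouse 5 and -0.27 without Dp3Yah mouse 4. Those with the smallest p were Inhba (-0.23), Bdnf (-0.14), Dusp5 (-0.27) and Fosl2 (-0.33).

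**Figure D4:**
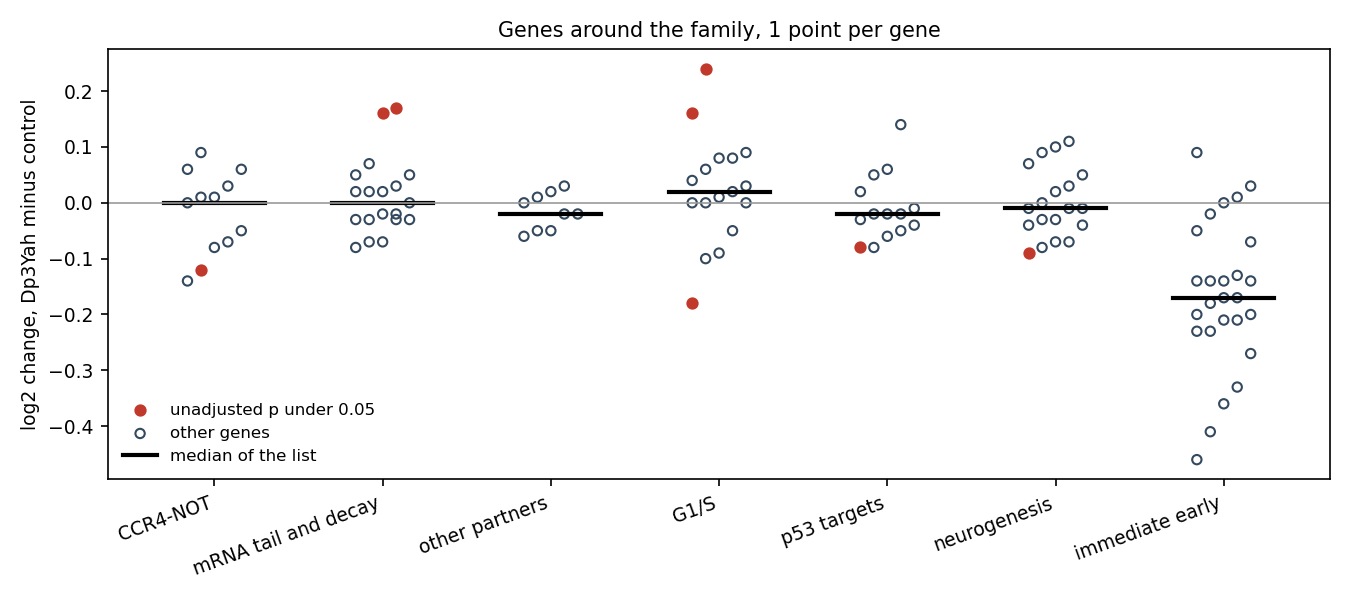
Log2 change (Dp3Yah minus control) of each measured gene of 7 lists around the family, with filled points for an unadjusted p under 0.05 and a bar for the median of the list. Medians lie between -0.02 and 0.02 in 6 lists and at -0.17 for the immediate early genes; no gene of these lists passed limma's test over the table.

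Marker lists were read beside these results. All 7 neuronal and all 7 dentate granule cell markers had a mean above the median of the table. The mean level of the granule cell list ran from 8.30 to 8.54 in Dp3Yah and from 8.47 to 8.70 in control mice, and 4 of the 7 were lower at an unadjusted p under 0.05, against 2.3% of all genes. Its median change was -0.22, and Calb1 alone was positive (0.14). For 1 of the 7 all 5 Dp3Yah mice lay below every control, as for 78 of all 19946 genes. The microglial list, 7 of 8 measured, ran from 7.67 to 7.90 in Dp3Yah and from 7.59 to 7.69 in control mice. All 7 changes were positive, and 2 of the 7 were higher at an unadjusted p under 0.05, against 2.33% of all genes. For 1 of the 7 all 5 Dp3Yah mice lay above every control, as for 0.521% of all genes. No gene of the granule cell or microglial list passed limma's test over the table. Every change was positive also in the astrocyte (6), oligodendrocyte precursor (2), mural (3) and ependymal (3) lists, and the remaining lists held negative ones. Over all 19946 genes, 9329 changes were positive. Markers of the choroid plexus, a tissue next to the hippocampus, split the mice: their mean was 7.21 to 7.94 in Dp3Yah mice 1, 2 and 5 and 7.93 and 8.02 in control mice 1 and 5, but 6.03 to 6.24 in the others. With that level as a covariate, an alternative chosen after seeing the data, the log2 changes were 0.54 for Btg3, -0.17 for Btg1, 0.11 for Btg2, -0.02 for Tob1 and -0.07 for Tob2. Of 55 relations between the 11 marker lists and the 5 members, none passed after adjustment. The strongest were those of Btg1 with the mural list (r = 0.765 with permutation p = 0.0116, adjusted 0.278, and rho = 0.492 with permutation p = 0.149, adjusted 0.853, but r = 0.095 without the 2 mice farthest out) and of Btg3 with the endothelial list (r = -0.746 with permutation p = 0.0146, adjusted 0.278, and rho = -0.77 with permutation p = 0.0123, adjusted 0.323, and r = -0.725 without the 2 farthest). The r of Btg1 with the endothelial list was 0.739 (permutation p = 0.0152, adjusted 0.278), with a rho of 0.721 (permutation p = 0.0229, adjusted 0.323), and 0.582 without the 2 farthest. The endothelial list had an r of 0.648 with Btg2 and 0.651 with Tob1 (adjusted p = 0.411 each), and its part in the relation between these genes was not tested.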

How the data were processed

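Values were deposited as log2 expression, which the authors obtained by RMA, which corrects background, makes the distributions of arrays equal and summarises probes. The submitters' processing notes name RMA, limma and mm10, without versions. The platform annotation paired 21797 of 35556 probe sets with 1 gene and 1613 with several, and 12146 stayed unnamed here. Symbols and coordinates came from RefSeq (GRCm38.p6).

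Dp3Yah was compared with control for every probe set (limma 3.58.1 under R 4.3.3, moderated two-sided test without covariates), with p adjusted by Benjamini-Hochberg over all 35556 probe sets at 0.05. Single values were also tested by exact permutation over all assignments of mice to groups. For lists, 19946 genes entered, each through the brightest of its 1-gene probe sets. The rank test (FCROS) was rewritten from its principle (25 pairs, trim 0.25, lower threshold 0.025 and the mirrored upper one). Correlations used 100000 permutations, after group means were removed, and the permutations did not allow for that removal. Only limma and the rank test were checked on simulated data, with independent noise, and the exact permutation test on a known case. The correlation tests were not checked in this way.

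The rule for named genes took every member, the gene that shares its probe sets, Btg4, named partners, measured interval genes, up to 4 genes per list with the smallest p, and the 3 genes most like each member; Btg1b and Btg1c were added after values were seen. The members and lists were chosen with earlier results of these data known, and the differences between Btg3 and other genes were tested after values were seen. No 2 arrays were identical, array medians were 5.64 to 5.71, and the median SD of a probe set within a group was 0.10. The mice were labelled as biological replicates, but which shared a litter is not given. The number of arrays limits the precision. Alternatives were a replicate block, other sets of probe sets, a filter on dim ones, renormalisation, centring, other variance settings, array weights and leaving out each mouse.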

Additional observations from a re-analysis of the deposited data

Results flagged for a closer look

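Among 57 probe sets of named genes, each examined in both groups, 2 of 114 groups held a mouse set far apart from the other 4 of its group; chance flags about 5% of groups. Mir99a was 5.21 in Dp3Yah mouse 5, against 4.69 to 4.80 in the other Dp3Yah mice. Samsn1 was 5.61 in control mouse 1, against 5.81 to 5.88 in the other controls. No BTG/TOB probe set was among them.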

How the results depend on the processing

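Btg3 did not pass limma's test in any alternative run: its change was 0.53 to 0.57 in the 10 alternatives that kept all mice, with adjusted p between 0.0503 and 0.547, and 0.48 to 0.59 with 1 mouse left out, with adjusted p between 0.0959 and 0.538. The second probe set gave 0.54 to 0.58, and 0.49 to 0.60 with 1 mouse left out. With the replicate number as a block the change of Btg3 was 0.54 (adjusted p = 0.547) and the count of called probe sets was 0; same-numbered mice correlated between -0.09 and 0.19, 2 of 5 pairs above 0.1, and 4 of 10 arrays correlated best with their own number in the other group, so the numbers were not taken as pairs. In the rank test f was 0.999 for both Btg3 probe sets and 0.024 for Btg1, past the thresholds, and 0.918 for Btg2, 0.428 for Tob1 and 0.115 for Tob2.

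The count of called probe sets, 1 over the whole table, was 3 among probe sets paired with a gene, 3 with 1 per gene and 3 above the median of the table, where fewer were tested. It was 2 with array weights and 2 with the choroid plexus covariate. The rank test marked 1803, but its f is scaled to the spread of the table itself. Its thresholds thus mark a similar share whatever the groups, and 1803 cannot be set beside limma's count. With 1 mouse left out limma's count ran from 0 to 2. It was 2 without Dp3Yah mouse 1 or control mouse 2. It was 0 without Dp3Yah mouse 3 or 4 or control mouse 3, 4 or 5. The cause of the moves in limma's count was not tested. The change of Tob1 was 0.00 after centring, with its sign turned, and -0.04 to 0.02 with 1 mouse left out. Btg1 ran from -0.23 to -0.11, Btg2 from 0.03 to 0.25 and Tob2 from -0.10 to -0.04 with 1 mouse left out. Tob2 lies below the median of the table and has no value in the filtered fit. The medians of the 19 lists moved by less than the spread between mice in 186 of 190 fits with 1 mouse left out. They did so in 19 of 19 fits with all probe sets of a gene. Leaving out 1 of 5 mice shifts a group mean by only part of that spread, so a high first count was close to fixed in advance. The median of the interval list moved by less than the spread in 7 of 10 such fits (0.24 to 0.30, against 0.28). That of the partner list did so in 9 of 10.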
